A study of Mus musculus with 2 samples.

Results

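The 8 genes described here encode the hormone, the receptor and the enzymes by which the Leydig cell of the testis makes its products: Insl3, Lhcgr, Star, Cyp11a1, Cyp17a1, Hsd3b1, Hsd3b6 and Hsd17b3. They were taken as a named list of 8 among 21900 protein-coding genes, and every 100 bp window of the deposited table that overlapped a gene span or the 1 kb on either side was used, which gave 238 of 2537435 windows. Methylated testis DNA of C57BL/6 mice was captured with the methyl-CpG binding domain of MBD2, a protein that binds methylated CpGs, and sequenced in 1 library per genotype. The knockout library is labelled Kaiso KO, from generation 3 offspring whose males are recorded as sterile, and the other library is labelled wildtype. Kaiso, the product of Zbtb33, is a transcription factor whose zinc fingers recognise methylated CpGs. The description of the knockout sample also calls its testis wildtype, so every knockout value rests on the genotype label. The deleted part of the allele, the age of the mice and the number of animals behind each library were not given in the sources used here.

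Leydig cells lie between the seminiferous tubules and are a minority of the cells of an adult testis, most of which are germ cells. Luteinizing hormone acts through its receptor LHCGR and cyclic AMP to raise steroid output. STAR carries cholesterol to the inner mitochondrial membrane, CYP11A1 cleaves its side chain to pregnenolone, the HSD3B enzymes and CYP17A1 turn that into androgens, and HSD17B3 makes testosterone. INSL3 is a peptide hormone of the same cells that directs descent of the testis. In DNA of whole testis, more methylated copies in each cell and a larger share of cells that carry the methylation cannot be told apart.

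The knockout library held 98549116 reads and the wildtype library 87710791. The table lists windows whose unadjusted p, as the authors computed it between the 2 libraries, was below 0.05, so a window that is absent was not shown to be alike, and ratios are pushed away from 1, the more so at low counts. Values are read counts per window, or RPKM, which is that count scaled by window length and by library reads. Ratios are knockout over wildtype per library read, with 95% Clopper-Pearson intervals that cover counting error only. With 1 library per genotype no difference has a replicate check and none was tested as an effect of genotype. A region was called higher or lower with at least 20 fragments in both libraries together, a difference of 2-fold or more in either direction, and an interval without 1. Fragments are window counts divided by 4, since a read was counted in several windows, and neighbouring windows therefore share reads. The divisor of 4 is an assumption, as the extension of reads was not stated. Intervals of regions and runs are on fragments, and those of single windows on undivided counts.

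The start regions of the genes differ in CpG content, and the sequences are shown for that reason. Each is the 250 bases before the annotated start in RefSeq, build GRCm38.p6, written 5′ to 3′ on the strand of the gene, with CpGs in capitals. Insl3 (chr8:71689002-71689251, plus strand) holds 11 CpGs, Lhcgr (chr17:88792015-88792264, minus strand) 12, Cyp11a1 (chr9:57997774-57998023, plus strand) 4 and Hsd3b6 (chr3:98814444-98814693, minus strand) 2.
Insl3: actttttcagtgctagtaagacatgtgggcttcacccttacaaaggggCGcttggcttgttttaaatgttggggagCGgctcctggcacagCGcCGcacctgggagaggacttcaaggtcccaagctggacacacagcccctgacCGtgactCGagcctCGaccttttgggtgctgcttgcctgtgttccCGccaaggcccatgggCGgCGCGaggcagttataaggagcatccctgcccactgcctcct
Lhcgr: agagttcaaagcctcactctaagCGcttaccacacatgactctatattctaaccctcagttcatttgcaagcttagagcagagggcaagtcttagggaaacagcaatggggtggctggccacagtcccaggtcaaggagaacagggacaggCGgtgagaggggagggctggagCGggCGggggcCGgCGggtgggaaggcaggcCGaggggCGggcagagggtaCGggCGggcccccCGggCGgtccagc
Cyp11a1: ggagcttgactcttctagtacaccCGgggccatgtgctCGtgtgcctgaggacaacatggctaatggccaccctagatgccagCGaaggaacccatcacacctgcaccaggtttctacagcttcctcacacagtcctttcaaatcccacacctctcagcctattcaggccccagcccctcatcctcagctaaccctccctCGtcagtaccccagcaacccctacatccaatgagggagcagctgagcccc
Hsd3b6: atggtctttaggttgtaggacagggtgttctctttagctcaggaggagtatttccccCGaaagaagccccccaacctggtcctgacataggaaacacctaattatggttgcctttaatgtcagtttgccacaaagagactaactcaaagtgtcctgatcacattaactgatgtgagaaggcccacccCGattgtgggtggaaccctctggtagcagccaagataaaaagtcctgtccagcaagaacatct

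The median over 32851 such promoter entries was 6 CpGs, and 35.6% of them held at least as many as Insl3 and 33.5% at least as many as Lhcgr. Entries were found for 6 of the 8 genes, with 1 CpG for Hsd3b1, 2 for Hsd17b3 and 1 before a second start of Cyp11a1. Star and Cyp17a1 had no entry. The Kaiso motif TCCTGCNA and the nuclear receptor motif CAAGGNCA, a sequence of the kind bound by NR5A1, were searched on both strands and do not overlap another motif searched. Neither was present in these 250 bases of any of the 6 genes, nor in most entries, with shares of 4.03% and 5.53%. At such shares absence from 6 genes does not set them apart, and near matches were not searched. CGCG, a sequence Kaiso binds when methylated, was present once in Insl3 and in none of the others, against 33.8% of all entries.

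Insl3 showed captured DNA over nearly its whole length in the knockout library and next to none in the wildtype library. The gene lies on chromosome 8 from 71689252 to 71690577, and 16 of the 34 windows of its region were listed. Their knockout counts ran from 18 to 40 with a median of 31.5, and their wildtype counts from 0 to 4 with a median of 0.5. All 16 windows were higher in the knockout library. Summed, Insl3 had 499 knockout and 21 wildtype counts, a log2 ratio of 4.40 (3.20 to 6.11), and was called higher. Among 19216 protein-coding genes with the minimum of fragments, 9.65% were called higher over the gene span plus 1 kb. Insl3 is short, so the same 16 windows make up its gene-end region, where 22.5% of genes were called higher. Of them 14 make up its start-site region, where 52.0% of genes were called higher. The 8 adjacent windows from 71689301 to 71690100 held no wildtype count and between 26 and 37 knockout counts each. The window that follows the start, with 14 CpGs, had 37 knockout and 0 wildtype counts, at least 10.98-fold higher against a floor of 3 counts.

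The surroundings of Insl3 shared its direction, at smaller ratios and with more wildtype counts. The annotated span of Jak3, a cytokine receptor kinase gene, runs from 71676383 to 71690577 and contains Insl3, so the 16 windows belong to both. In the other 80 listed windows of Jak3 the knockout library had 4894 counts and the wildtype library 1976, a log2 ratio of 1.14 (0.99 to 1.29), and 75 windows were higher. In the 9 listed windows between 1 and 2 kb from the Insl3 span, all of them higher, there were 577 knockout and 289 wildtype counts, a log2 ratio of 0.83 (0.41 to 1.26). With a flank of 2 kb these enter, and the log2 ratio of Insl3 was 1.63, still called higher.

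**Figure D1:**
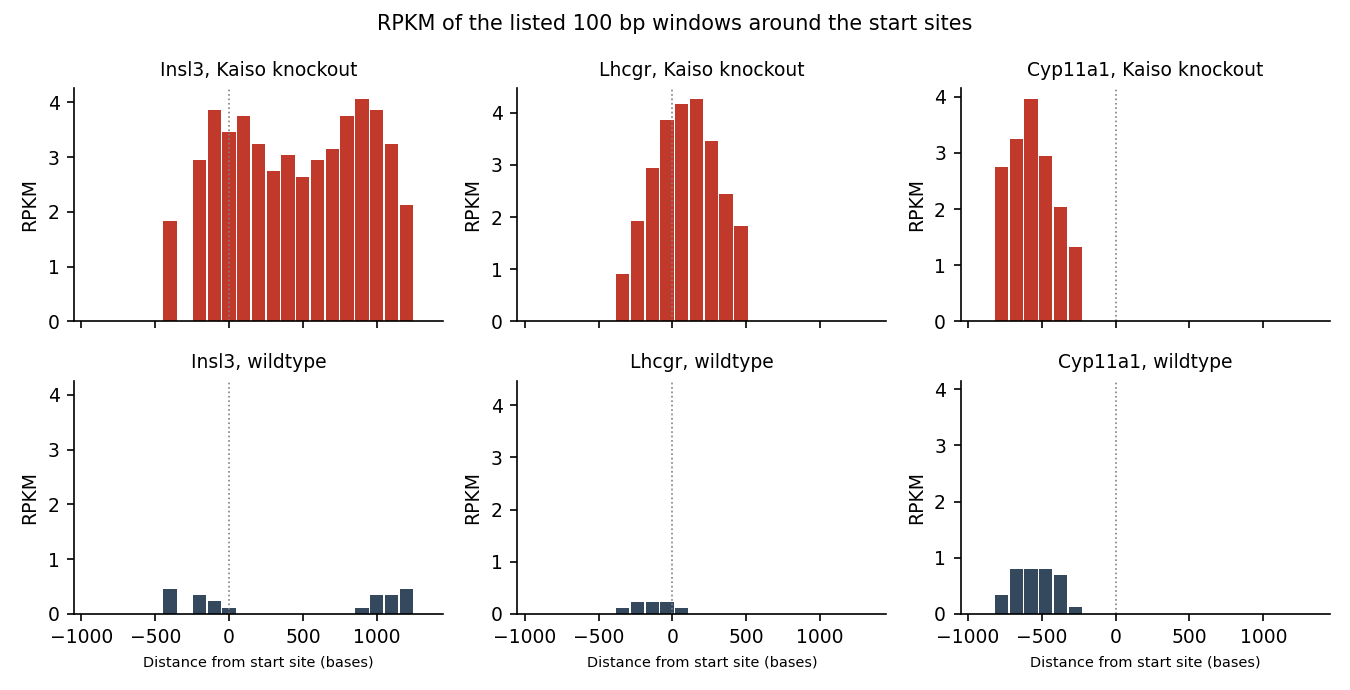
RPKM (vertical axes) of the listed 100 bp windows by distance in bases from the annotated start site of Insl3, Lhcgr and Cyp11a1, with the Kaiso knockout library above the wildtype library and 1 library each. Knockout bars reach 4.06 RPKM at Insl3, where no wildtype bar exceeds 0.456, and positions without a bar are windows that are not listed.

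Lhcgr, the receptor gene, had more captured DNA in the knockout library at its start and in a stretch far inside the gene, while the rest of the gene was mixed. It lies on chromosome 17 from 88716384 to 88792059 on the minus strand, and 91 of 778 windows were listed. Around the start site 9 adjacent windows, from 88791501 to 88792400, had between 9 and 42 counts each in the knockout library and between 0 and 2 in the wildtype library. Their sums were 254 knockout and 8 wildtype counts, with a log2 ratio of 4.82 (2.90 to 7.89). Of these windows 4 had no wildtype count.

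The internal stretch of Lhcgr was made of 20 higher windows from 88753401 to 88756000, between 36014 and 38613 bases downstream of the start. Knockout counts were between 12 and 89 and wildtype counts between 0 and 6, with sums of 980 and 61 and a log2 ratio of 3.84 (3.11 to 4.72). Within it the window at 88755101 had 89 knockout and 3 wildtype counts, a log2 ratio of 4.72 (3.13 to 7.03). The window at 88755301 had 62 knockout and 1 wildtype count, a log2 ratio of 5.79 (3.25 to 11.11). The annotation used here gives gene spans without exons, so whether the stretch is exonic or intronic is not stated.

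Over all 91 windows Lhcgr had 4618 knockout and 2839 wildtype counts, a log2 ratio of 0.53 (0.40 to 0.67), and was not called. Without the start windows and the internal stretch, both picked out after their values were seen, the other 62 windows had 29 higher and 33 lower ones. They summed to 3384 knockout and 2770 wildtype counts, a log2 ratio of 0.12 (-0.025 to 0.27). Lower windows formed runs as well. The 4 windows from 88748401 to 88748800 had 22 knockout and 149 wildtype counts, a log2 ratio of -2.93 (-4.76 to -1.70), the lowest of the runs of 3 or more adjacent windows in Lhcgr, and called lower as were 33.2% of such runs in the genome. The higher run of 4 windows from 88750101 was captured in both libraries, with 524 knockout and 355 wildtype counts, a log2 ratio of 0.39 (0.0052 to 0.81).

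Hsd17b3, whose enzyme makes testosterone from androstenedione in Leydig cells, had the same kind of internal stretch but no higher window at its start. The gene lies on chromosome 13 from 64058274 to 64089262 on the minus strand, and 47 of 331 windows were listed. In 17 windows from 64080501 to 64082800, between 6401 and 8700 bases downstream of the start, knockout counts were between 11 and 49 and wildtype counts between 0 and 6. The sums were 443 knockout and 21 wildtype counts, with a log2 ratio of 4.23 (3.03 to 5.94), and 9 of the 17 windows had no wildtype count. The windows at 64080601 and at 64080701 each had 49 knockout and 1 wildtype count, a log2 ratio of 5.45 (2.90 to 10.78).

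Outside that stretch, picked after its values were seen, Hsd17b3 had 13 higher and 17 lower windows and a log2 ratio of -0.073 (-0.29 to 0.14). The run of 7 windows from 64072201 had 632 knockout and 328 wildtype counts, a log2 ratio of 0.78 (0.38 to 1.18). The run of 3 from 64086101, nearer the start, had 30 knockout and 128 wildtype counts, a log2 ratio of -2.26 (-3.79 to -1.16). At the start itself 1 window, at 64089201, was listed, with 15 knockout and 29 wildtype counts. Over the whole region the gene had 1896 knockout and 1381 wildtype counts, a log2 ratio of 0.29 (0.087 to 0.49), and was not called.

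**Figure D2:**
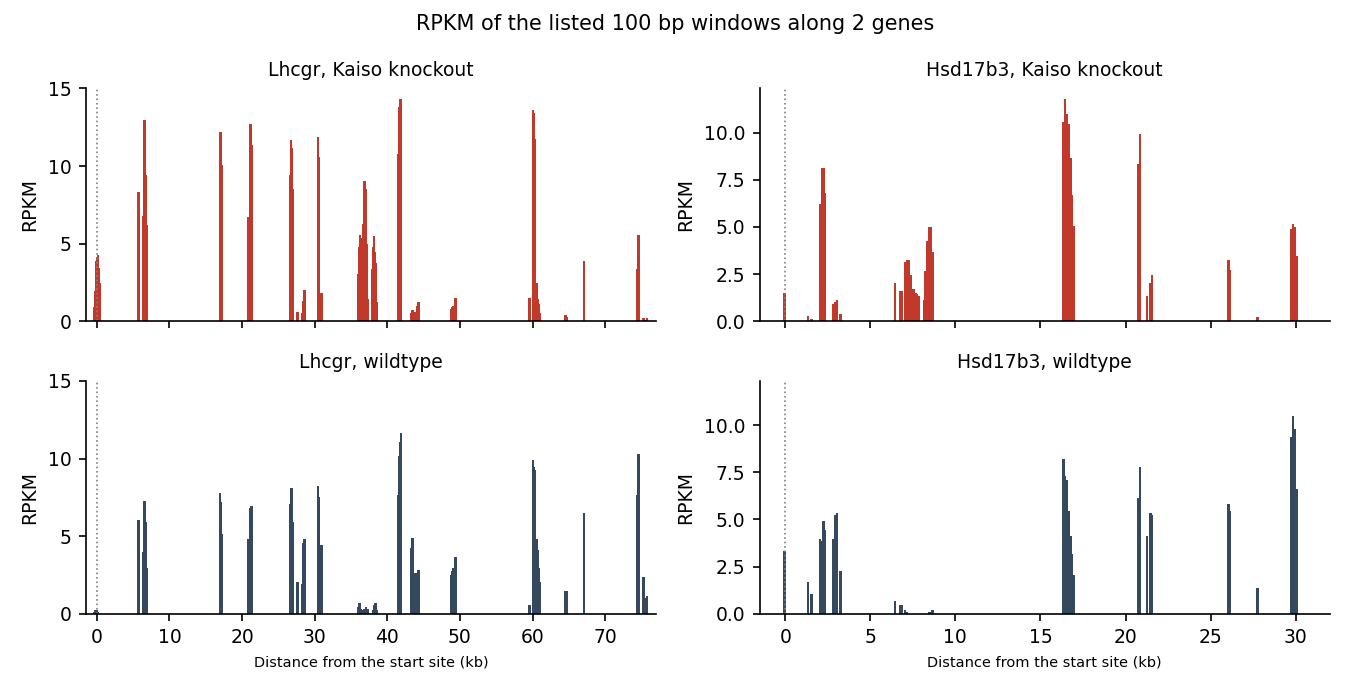
RPKM (vertical axes) of the listed 100 bp windows of Lhcgr and Hsd17b3 by distance in kb from the start site (dotted line), with the Kaiso knockout library above the wildtype library and 1 library each. The internal stretches, 36014 to 38613 bases into Lhcgr and 6401 to 8700 bases into Hsd17b3, stand up in the knockout panels and average 0.348 and 0.141 RPKM in wildtype.

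Stretches at least 8-fold higher were a minority in the genome. The genome held 47247 stretches of 10 or more listed windows of 1 direction, with gaps of up to 1 kb and the minimum of fragments. Of these 31.9% were called higher, 20.5% were called lower and 5.04% were at least 8-fold higher. This definition of a stretch was added after the data were seen, so these shares do not measure how unusual the stretches of the 8 genes are. The 8 genes held 4 stretches of that length, all higher. Those of Insl3, Lhcgr and Hsd17b3 were 21.1-fold, 14.3-fold and 18.8-fold higher, while that of Star, with 13 windows, was below 2-fold. The stretches of the 8 genes were formed within their regions, whereas those of the genome were not cut at genes. That of Insl3 may run on past its region. The 9 windows between 1 and 2 kb from its span were all higher, at a log2 ratio of 0.83. Its 21.1-fold is therefore not measured in the same way as the 5.04%. The mean knockout RPKM was 3.16 in the stretch of Insl3, 4.97 in that of Lhcgr and 2.64 in that of Hsd17b3, against wildtype means of 0.150, 0.348 and 0.141.

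Cyp11a1, the gene of the side-chain cleavage enzyme, was higher upstream of its first start and lower around its second. It lies on chromosome 9 from 57998024 to 58027031, and 49 of 311 windows were listed. The 6 windows from 57997201 to 57997800 had between 13 and 39 knockout counts and between 1 and 7 wildtype counts. Summed, they had 160 and 31 counts and a ratio of 4.59 (2.25 to 13.5). The 3 windows from 58014901 to 58015200, which cover the second start at 58014952, had 3 knockout counts each and 21 or 22 wildtype counts each. Their log2 ratio was -3.00 (-6.33 to -1.08), on 18 fragments, under the minimum for a call. Over the gene the 27 higher and 22 lower windows gave 2374 knockout and 1847 wildtype counts, a log2 ratio of 0.19 (0.017 to 0.37), not called.

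Star and Cyp17a1 had no higher windows with next to no wildtype counts. Star lies on chromosome 8 from 25808474 to 25815982, with 19 of 96 windows listed, of which 15 were higher and 4 lower. Its stretch of 13 higher windows from 25810601 to 25812500 had 1323 knockout and 728 wildtype counts, a log2 ratio of 0.69 (0.43 to 0.96). Another 3 windows between 25809201 and 25809600 had 2 or 3 knockout counts each and between 23 and 27 wildtype counts. The whole region of Star had a log2 ratio of 0.51 (0.27 to 0.74) and was not called. The span of Ash2l begins 18 bases beyond that of Star.

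Cyp17a1, on chromosome 19 from 46667165 to 46673000, had 8 listed windows of 79, with 4 higher and 4 lower. The higher ones had between 81 and 143 knockout and at least 53 wildtype counts, and the lower ones between 16 and 34 knockout and between 31 and 57 wildtype counts. Summed, it had 602 knockout and 518 wildtype counts and a log2 ratio of 0.049 (-0.30 to 0.40). The noncoding RNA gene Gm41857 overlaps its span.

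Hsd3b1 and Hsd3b6, for enzymes that turn pregnenolone into progesterone, had lower windows and no higher ones. Hsd3b6, the form known from adult mouse Leydig cells, lies on chromosome 3 from 98805504 to 98814443. Its 7 listed windows, of 110, were all lower, with between 4 and 14 knockout counts and between 19 and 33 wildtype counts. Summed, Hsd3b6 had 55 knockout and 174 wildtype counts, a log2 ratio of -1.83 (-2.91 to -0.97), and was called lower, a call shared by 5.62% of all genes tested. The run of 4 windows from 98812701, within 2 kb of the start, had 21 knockout and 90 wildtype counts, a log2 ratio of -2.27 (-4.06 to -0.87).

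Hsd3b1, on chromosome 3 from 98842356 to 98859794, had 1 listed window of 195. That window, at 98852701, had 30 knockout and 48 wildtype counts, a log2 ratio of -0.85 (-1.56 to -0.16) on its counts, and the gene stayed under the minimum of fragments. The HSD3B genes are similar copies in a cluster, and the sources used here do not say how reads with several matches were handled, so values of Hsd3b1 and Hsd3b6 may share reads with other copies.

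**Figure D3:**
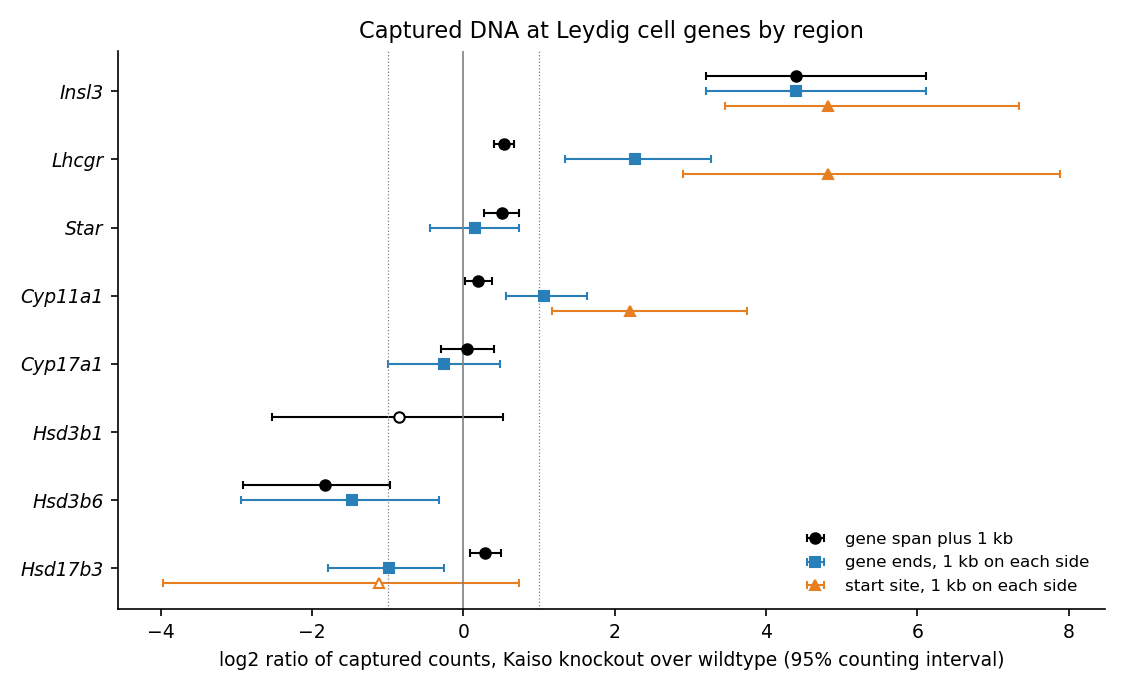
Log2 ratio of captured counts, Kaiso knockout over wildtype (horizontal axis), for each gene over the gene span plus 1 kb, at both gene ends and at the start site, with 95% counting intervals and dotted lines at 2-fold. Open symbols lie under the minimum of 20 fragments, and Insl3 at 4.40 and Hsd3b6 at -1.83 are the only genes past 2-fold over the span.

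By region, calls were more frequent near gene ends than over whole genes, in these genes as in all. With scaling within CpG classes this did not hold for these genes, where 3 of 7 were called by either region. Over the span plus 1 kb, 7 of the 8 genes had the minimum, of which 1 was higher, 1 lower and 5 neither, where 15.3% of all 19216 genes were called in either direction. The median log2 ratio was 0.29 for these 7 and 0.31 over all genes. Within 1 kb of either gene end 3 of 7 were higher and 1 lower, where 22.5% of 14817 genes were higher and 13.3% lower, 35.8% in all. The higher ones were Insl3, on the same windows as over its span, Lhcgr (log2 2.26, 1.34 to 3.27) and Cyp11a1 (1.07, 0.57 to 1.63). The lower one was Hsd3b6 (-1.47, -2.94 to -0.33). Hsd17b3 lay just short of 2-fold there, at -0.99 (-1.79 to -0.26). Cyp11a1 was below 2-fold, with log2 ratios between 0.41 and 0.90, when the libraries were scaled by autosomal counts, by TMM, or with windows of 5 or more CpGs at 0, and Hsd17b3 was then called lower.

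Within 1 kb of the first start site, Insl3 (4.83, 3.46 to 7.34), Lhcgr and Cyp11a1 were higher, the 3 genes with the minimum. There 52.0% of 5580 genes were higher and 65.8% were called in either direction, with a median log2 ratio of 1.15, so that higher start regions were common wherever windows were listed. No window was listed within 1 kb of the starts of Hsd3b1 and Hsd3b6.

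Among the 238 windows, the knockout library was higher in 150 and lower in 88, a higher share of 63.0% against 56.5% of all listed windows. Most higher windows fell at 1 of 2 ends of the range. In 61 windows the knockout was at least 4-fold higher, with 0 set to 3 counts, and the wildtype RPKM was at most 0.798, against 0.913 to 9.03 in the knockout. These were 29 windows of Lhcgr, 16 of Insl3, 12 of Hsd17b3 and 4 of Cyp11a1, and 9.44% of all listed windows were at least 4-fold higher. In 74 windows the knockout was less than 2-fold higher, with medians of 10.7 RPKM in the knockout and 6.84 RPKM in wildtype. Only 15 higher windows lay between these classes. The whole table had this form as well. Of its 1432879 higher windows, 239647 were at least 4-fold higher, 985549 less than 2-fold higher and 207683 in between.

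Lower windows were spread more evenly over the fold classes. Of the 88, 33 lay between 2-fold and 4-fold and 17 under 2-fold, while 38 were at least 4-fold lower. Over all listed windows these classes held 564523, 140388 and 399645 of 1104556 lower windows. Those 38 were 15.97% of the 238 windows, near the 15.7% of all listed windows. None of the 88 had more than 4 CpGs, and their median counts were 9 in the knockout and 28 in wildtype. A window without a wildtype count occurred 23 times, in Insl3, Lhcgr and Hsd17b3, while 1.24% of all listed windows were of that kind. None of the 238 lacked knockout counts. Such windows were few in the whole table too, 37953 of 2537435, against 31585 without a wildtype count.

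**Figure D4:**
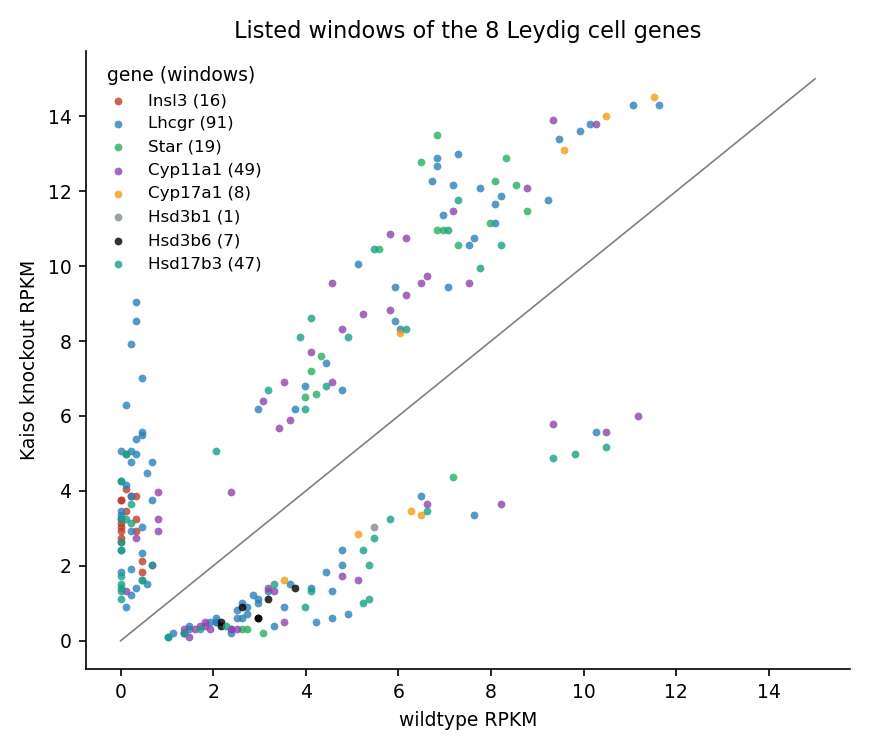
Knockout RPKM (vertical axis) against wildtype RPKM (horizontal axis) for the 238 listed windows of the 8 genes, 1 point per window coloured by gene, with the line of equal RPKM. The 61 windows at least 4-fold higher stand at the left edge, at wildtype values up to 0.798 RPKM, and the band around the line is empty because the table lists windows by p.

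Direction followed CpG content in these genes much as it did in the whole table. The share of higher windows was 46.1% at 1 CpG and 68.4% at 3 CpGs, against 37.8% and 71.0% of all listed windows. At 4 CpGs 20 of 25 were higher, against 91.7% of all listed windows. All 29 windows with 5 or more CpGs were higher, as were 98.9% of all such windows. The level of those 29 was low. Their median was 5.58 RPKM in the knockout and 0.456 RPKM in wildtype, whereas all listed windows with 5 or more CpGs had medians of 12.2 and 7.98 RPKM. The part of CpG content in the ratios of single genes was not tested beyond the scaling within CpG classes, under which Insl3 had a log2 ratio of 4.59 and Hsd3b6 of -1.07, both still called.

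**Figure D5:**
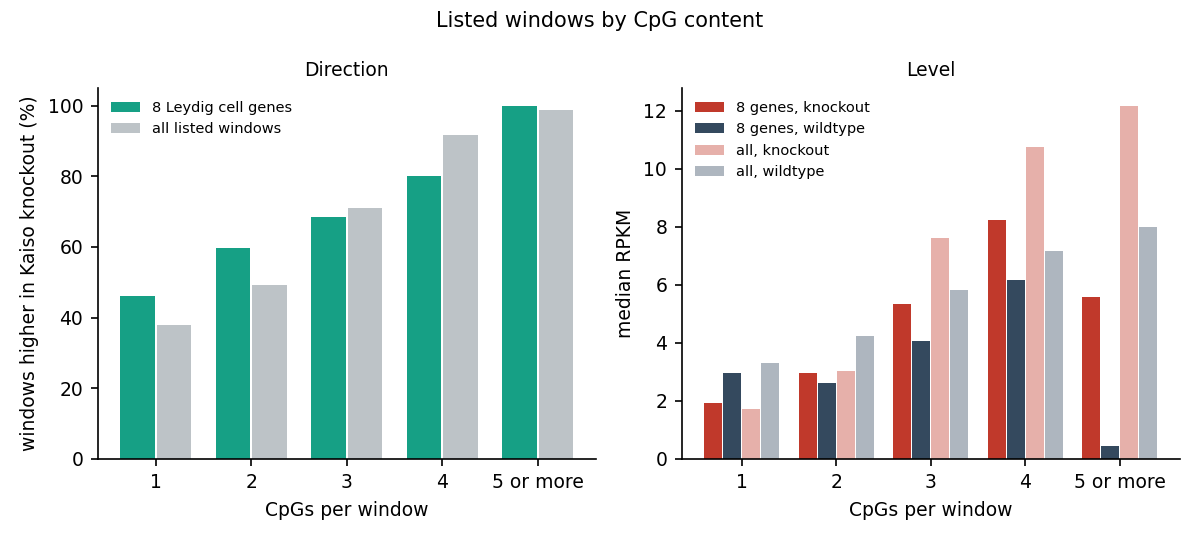
Share of listed windows higher in the Kaiso knockout (left, percent) and median RPKM (right) by the number of CpGs in the window, for the 8 Leydig cell genes and for all listed windows. With 5 or more CpGs the genes stand at 5.58 RPKM in the knockout and 0.456 RPKM in wildtype, against 12.2 and 7.98 RPKM in all listed windows. These medians of the genes pool windows with next to no wildtype capture and windows captured in both libraries.

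Other genes of the pathway were taken as a wider list. Of a list of 68 genes for cholesterol supply, steroid enzymes, luteinizing hormone signalling and Leydig cell identity, 63 had the minimum over the span plus 1 kb. Of these 3 were higher, 4 lower and 56 neither, against 9.65% higher and 5.62% lower over all genes, and the median log2 ratio was 0.34. Gnas, the imprinted locus of the G protein subunit that couples receptors such as LHCGR to cyclic AMP, had 9735 knockout and 3605 wildtype counts (log2 1.27, 1.15 to 1.38). Hsd17b1, for an enzyme of estradiol synthesis, had 1421 and 606 (1.06, 0.79 to 1.35), and Hsd17b10, for a mitochondrial dehydrogenase, 469 and 199 (1.07, 0.59 to 1.60).

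Among the lower genes, Crem, for a cyclic AMP responsive factor of spermatids, had 157 knockout and 485 wildtype counts (log2 -1.80, -2.36 to -1.27), with all 19 windows lower. Nr0b1, for a repressor of steroidogenic genes, had 35 and 89 (-1.51, -3.00 to -0.41). Akr1b7, for an aldose reductase-like enzyme of steroidogenic tissue, had 444 and 1013 (-1.36, -1.69 to -1.03), with all 27 windows lower. The split between higher and lower moved with the scaling, with 0 higher and 4 lower by autosomal counts, 1 and 4 by TMM, 6 and 4 by the authors' scaling, 0 and 6 with windows of 5 or more CpGs at 0, and 4 and 1 within CpG classes. Nr5a1, the master regulator of these genes, had 1820 knockout and 1396 wildtype counts (0.21, 0.010 to 0.42), and Rxfp2, the receptor of INSL3, had 10170 and 4819 (0.91, 0.81 to 1.01), neither called over the span. At its gene ends Rxfp2 was called higher, with 1905 knockout and 719 wildtype counts (1.24, 0.99 to 1.499), all 29 windows higher. It was also called higher at its start site, with 1328 and 588 counts (1.01, 0.72 to 1.30). Scaling by autosomal counts, a shift of -0.27, takes both ratios below 2-fold. TMM, a shift of -0.17, takes that of the start site below it. Of all genes 22.5% were called higher at gene ends and 52.0% at start sites. In the pathway list 5 of 47 genes with the minimum were higher and 6 lower at gene ends. At start sites 4 of 10 were higher and 3 lower.

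Among markers of other cells of the testis, calls at gene ends were most frequent in the germ cell list. At gene ends, where 22.5% of all genes were higher and 13.3% lower, 10 of 12 germ cell genes such as Dazl and Ddx4, which somatic cells keep methylated, were higher and 0 lower, with log2 ratios from 0.92 to 3.96, a median of 2.84 and sums of 11457 knockout and 2106 wildtype counts. Over the span plus 1 kb 4 of these 12 were called, all of them higher, the median was 0.57 on the log2 scale, and Ddx4 was at -0.029. Of 8 Sertoli cell genes with listed windows 4 were higher and 0 lower, with log2 ratios from -0.32 to 3.09 and sums of 4109 knockout and 1510 wildtype counts. Over the span plus 1 kb 3 of 9 were higher and 0 lower, with a median of 0.61. Of 4 macrophage genes 3 had the minimum, of which 0 were higher and 1 was lower, with sums of 1200 knockout and 1003 wildtype counts. Over the span plus 1 kb 0 of the 4 were called. At start sites, where 52.0% of all genes were higher and 13.9% lower, 11 of 11 germ cell genes with the minimum were higher. Their median log2 ratio was 2.96. Of 2 Sertoli cell genes with the minimum there 1 was higher and 0 lower, and the 1 macrophage gene was lower. None of these markers with listed windows was at 0 in either library. The part of the cell makeup in the values of the Leydig cell genes was not tested. The identity of the tissue could not be read from RNA, as the libraries hold DNA.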

How the data were processed

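Methylated DNA of testis was captured with MBD2 and sequenced on an Illumina HiSeq instrument, per the labels' protocols, in 1 Kaiso knockout and 1 wildtype library, grouped by the genotype label. Bowtie2 2.2.6, edgeR and mm10 were named in the submitters' processing notes, and the columns are named as MEDIPS names them. The deposited count is a whole number of reads per 100 bp window, and the authors' RPKM is that count per length and library reads. The deposited relative methylation score has no stated scale and entered no comparison. The authors' log2 fold change ran wildtype over knockout in all 2537435 windows and served for 1 scaling only. The deposited p-value was below 0.05 in every listed window and equal to the adjusted one. Another 10 columns of values were not used. Library reads were read from the constant ratio of count to RPKM.

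Gene spans came from RefSeq GRCm38.p6, the assembly of mm10. CpG counts of 8597 of 8597 windows inside promoter entries equalled those of the RefSeq sequence. Sums, exact intervals and calls were computed with Python 3.11.15 and scipy 1.17.1, and TMM with edgeR 4.0.16. The code for calls was run on simulated independent fragments, the model behind the intervals. That run cannot speak to shared reads, listing by p or variation between animals. No count test was run, since there is 1 library per genotype. Regions where 1 library had under 1 fragment were given 3 fragments there. The genes and lists were chosen with earlier results of these data known. Text names the 8 genes, called pathway genes (1 of them is not reported here), runs of 3 or more adjacent windows, stretches of 10 or more (a definition added after the data were seen), and per gene and direction at most 3 windows by summed count and 3 by ratio. Nr5a1 and Rxfp2 were named outside that rule after their values were seen, and Dhh stands in 2 lists.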

Additional observations from a re-analysis of the deposited data

How the results depend on the processing

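The numbers of called genes among the 8 stayed within 1.5 times the main number in each alternative except 1. Over the span plus 1 kb, 2 genes were called in each setting except scaling within CpG classes, where Star (log2 1.12) made 3. At gene ends 4 were called, between 3 and 5 in the other settings, and 2 of 3 tested with 500 bp on each side, where fewer windows enter. There scaling within CpG classes gave 3 higher and 0 lower, so Hsd3b6 was not called. Of the pathway list 7 genes were called, 4 with autosomal counts (0 higher and 4 lower), and 13 at a fold of 1.5 (9 higher and 4 lower). The windows of 5 or more CpGs at 0 gave 0 higher and 6 lower, and scaling within CpG classes 4 higher and 1 lower. The cause was not tested.

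Other scalings shift every log2 ratio by 0.13 (authors' scaling), -0.17 (TMM), -0.27 (autosomal counts) and -0.66 (windows of 5 or more CpGs at 0). Across 8 alternatives the log2 ratio of Insl3 lay between 1.63 and 4.94, lowest with a flank of 2 kb, and that of Hsd3b6 between -2.49 and -1.07. Lhcgr (-0.12 to 0.80), Star (-0.15 to 1.12), Cyp11a1 (-0.46 to 0.51), Cyp17a1 (-0.61 to 0.18) and Hsd17b3 (-0.37 to 0.78), not called in the main setting, took both signs. Of 64 such values 48 stayed inside the main interval and 16 did not. No paired analysis was possible because each genotype has 1 library. Depth limits regions with few wildtype fragments, whose intervals are wide.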

Other observations

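Both neighbours of Insl3 and the neighbour of Star had more higher than lower windows. B3gnt3, a glycosyltransferase gene whose span lies 796 bases beyond Insl3, had 952 knockout and 289 wildtype counts in 18 listed windows, all of them higher, with a log2 ratio of 1.55 (1.17 to 1.96). Ash2l, a subunit gene of histone methyltransferase complexes, had 1868 knockout and 1055 wildtype counts in 26 windows, of which 21 were higher and 5 lower. Its log2 ratio was 0.66 (0.44 to 0.88), under 2-fold. Other copies of the HSD3B cluster were not called over the span plus 1 kb. Hsd3b3 had 473 knockout and 412 wildtype counts (log2 0.031, -0.37 to 0.42) and Hsd3b5 had 1344 and 1159 (0.046, -0.18 to 0.28). At its gene ends, however, Hsd3b5 was called lower, with 20 knockout and 65 wildtype counts (-1.87, -3.65 to -0.33). The gene Hsd3b4 rested on 1 window with 7 and 19 counts, and Hsd3b2 had none listed.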
